A study of Mus musculus with 6 samples.

Results

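The genes described here serve DNA damage repair and the Fanconi anemia pathway, and 38 of the 39 named members were measured, out of 19938 genes in all. They were named by pathway, and each is read from the probe set that the platform annotation assigns to that symbol alone, taking the brightest over all arrays where a gene has several. Xrcc2 is not analysed here. The cells were neural stem cells from wild-type C57BL/6 embryos, labelled female, at embryonic day 17.5. They were taken from the subventricular zone of either the lateral or the third ventricle and grown in low-attachment dishes with FGF and EGF, each at 20 ng/ml. Each region had 3 arrays, called biological replicates in the labels, with no treatment and no altered gene in either group. All cells had thus been expanded in culture before RNA was taken, and each array reads the RNA of a whole culture. A lower value can therefore come from fewer cells that express a gene or from less RNA per cell, which cannot be told apart.

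Cells mend damaged DNA by separate routes. Homologous recombination copies the intact sister chromatid and so works mainly in S and G2 phase. End joining ligates broken ends at any phase, and the Fanconi proteins open crosslinks between the strands and hand the break to recombination. Mismatch, base excision and nucleotide excision repair replace wrong, oxidised or bulky bases from the undamaged strand. Dividing neural progenitors of the embryo depend on these routes, and loss of several of the genes causes small brain size or loss of newborn neurons in mice and people.

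Over all genes every pair of arrays from the third ventricle had an r of 0.995. Lateral ventricle array 2 had an r of 0.991 with each of them, but of 0.980 with lateral array 1 and of 0.982 with lateral array 3. These correlations run across genes, which are not independent replicates. In 3 of 8 measured markers of the oligodendrocyte lineage, by contrast, array 2 lay with the other lateral arrays, above every value of the third ventricle. It read 8.25 for Pdgfra, 6.93 for Gpr17 and 6.80 for Sox10. In the other 5 markers the regions overlapped, and for Olig1 array 2 was the highest of all 6 arrays, at 9.23. Why array 2 stood apart was not tested. Its label was used as given, and results are shown with and without it. Of 10 neural stem cell markers, 9 lay above a background gauge in all 6 arrays and Prom1 in 5. The gauge is the 95th percentile of 1027 olfactory receptor genes, which are rarely expressed outside the nose, and it lay between 5.03 and 5.16 on the log2 scale. Of 8 endothelial and mural markers 7 lay below it in all 6 arrays and Acta2 above it in all, and of 6 microglial and blood markers 4 lay below it in all, while Alas2 was above it in 6 arrays and Cx3cr1 in 5. Of 6 meningeal markers, Col1a1, Col1a2 and Col3a1 lay above it in all arrays and 3 below it, and of 6 choroid plexus and ependymal markers 5 lay above it and Ttr, the defining choroid plexus gene, below it.

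No repair gene passed between the regions when all arrays were used. In limma 0 of 38 members reached an adjusted p below 0.05, against 46 of all 19938 genes (0.231%). At an unadjusted p below 0.05 there were 15 members, 14 with a positive and 1 with a negative difference, the third ventricle minus the lateral, against 12.6% of all genes. The median difference of the members, the third minus the lateral ventricle, was 0.37 on the log2 scale, against -0.02 over all genes, and 32 of the 38 had a positive difference. All values of the third ventricle lay above all lateral values in 10 members (7.77% of all genes) and below them in 1 (9.24% of all genes).

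Without lateral ventricle array 2, 21 of the 38 members passed. Of these, 19 were higher in the third ventricle cultures than in lateral ventricle arrays 1 and 3, against 4.37% of all genes, and 2 were lower, against 3.88% of all genes. The median difference was 0.52, against -0.0091 over all genes. Array 2 is the lateral array most like those of the third ventricle, so leaving it out favours larger differences and a smaller lateral spread over all genes, with 1644 genes called in place of 46. Every adjusted p given without array 2 is conditional on that choice. Leaving out any of the other 5 arrays in place of array 2 gave 0 calls among the members. Set against lateral ventricle array 2 alone, a comparison added after seeing the data in which the lone lateral array is assumed to vary like the others, the third ventricle arrays differed at 0 of the 38 members, none of them at an unadjusted p below 0.05 either, against 0.296% of all genes. The median difference was then -0.04. A call made without array 2 is thus a difference from lateral ventricle cultures 1 and 3 that culture 2 need not share.

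**Figure D1:**
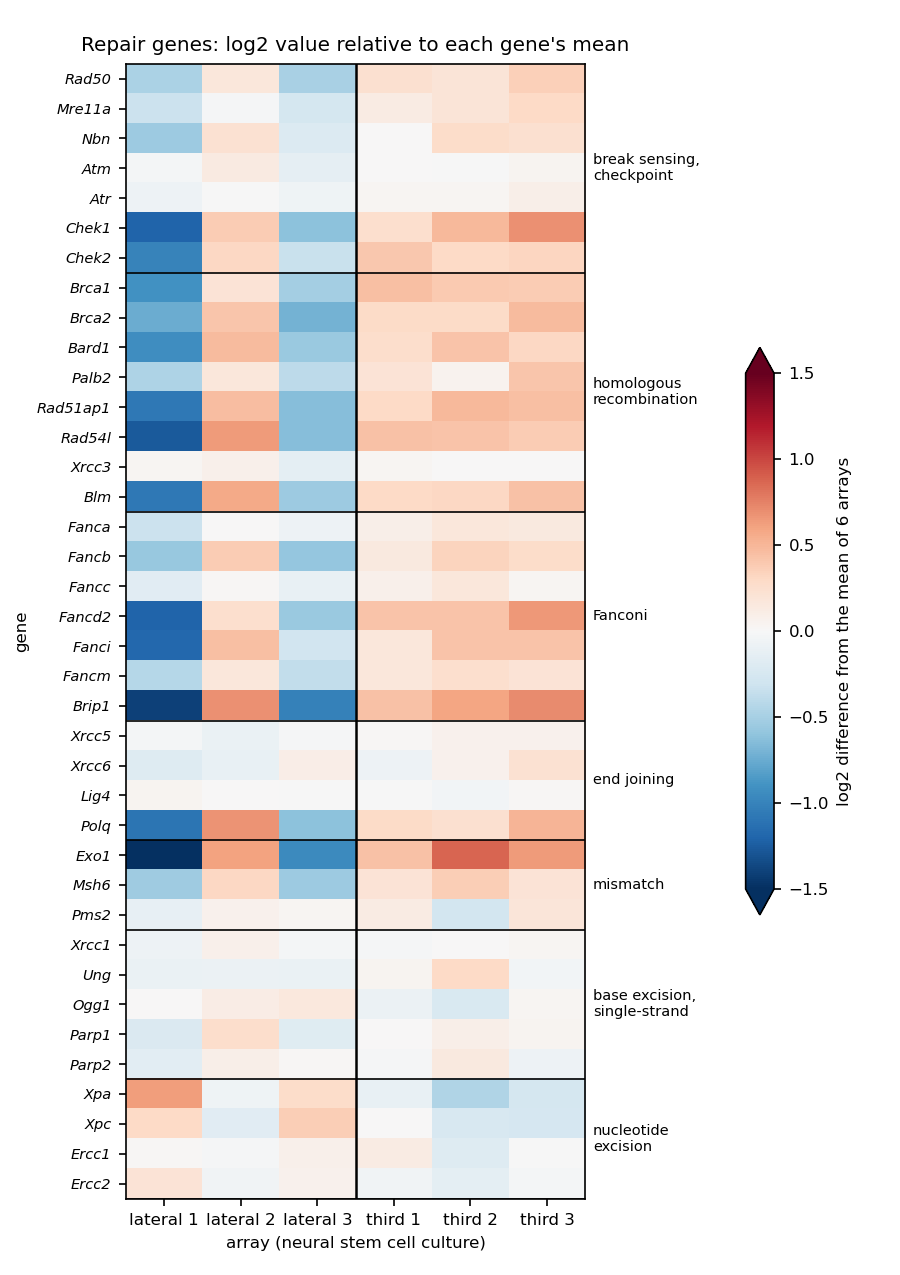
Log2 values of the 38 repair genes in the 6 arrays, each as the difference from that gene's mean (color; scale clipped at -1.5 and 1.5), ordered by repair route, with a line between the regions. Most recombination, Fanconi and checkpoint kinase genes are low in lateral arrays 1 and 3 and high in lateral array 2 and the third ventricle arrays, while end joining genes other than Polq and base excision genes vary little and Xpa and Xpc run the other way.

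Among the 19 members called higher without lateral ventricle array 2, that array held the highest lateral value in 19. It lay within the range of the third ventricle arrays in 8, above it in 6 and below it in 5. Lateral ventricle array 1 lay below array 3 in 16 of the 19 and held the lowest of all 6 values in the same number. These counts describe the arrays only, since the 19 were picked by a fit that leaves array 2 out. Their fitted differences ran from 0.50 to 1.93, with a median of 1.08. With all arrays the same genes differed by 0.40 to 1.30, with adjusted p-values from 0.270 to 0.506.

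To show the start regions of genes that were called together, the RefSeq promoter windows of assembly GRCm38.p6, from 250 bases before to 50 after the transcription start, were searched on both strands for the letters of E2F sites. E2F factors switch on S phase genes. The letters searched were TTTCCCGC, TTTCGCGC, TTTGCCGC and TTTGGCGC, and a window of 300 bases was held for 33 of the 38 measured members. A match was present in 5 of the 33 (15.2%), against 2.60% of 27025 genes with a window, and 4.79% of the genes whose window had at least the members' median GC content of 58.7%. Of the 16 windows of members called higher without lateral ventricle array 2, 4 held a match (Bard1, Brca2, Chek2 and Msh6), and of the 17 other windows 1 did (Xrcc6, which was called in neither fit). The CHR letters TTTGAA, an element of genes that peak in G2 and mitosis, stood in 2 of the 33 windows (Bard1 and Polq; 6.06%), against 20.2% of all genes and 9.86% of those with the GC content named above. A match is a description of the letters and not a measured binding site. Only the exact letters named were searched, so a window without a match can still hold another form of the site. The windows with an E2F match are shown 5′ to 3′ on the gene's strand, with the match in capitals, so that its place can be compared between the 4 called genes and Xrcc6. They lie at chr1:71102923-71103222 on the minus strand for Bard1, and on the plus strand at chr5:150522371-150522670 for Brca2, chr5:110839733-110840032 for Chek2, chr17:87974800-87975099 for Msh6 and chr15:82016119-82016418 for Xrcc6.
Bard1: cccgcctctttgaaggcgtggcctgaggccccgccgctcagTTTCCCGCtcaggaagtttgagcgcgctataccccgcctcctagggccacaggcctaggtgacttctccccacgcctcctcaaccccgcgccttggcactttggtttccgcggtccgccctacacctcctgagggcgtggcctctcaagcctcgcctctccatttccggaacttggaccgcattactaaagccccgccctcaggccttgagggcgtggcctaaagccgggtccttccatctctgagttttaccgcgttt
Brca2: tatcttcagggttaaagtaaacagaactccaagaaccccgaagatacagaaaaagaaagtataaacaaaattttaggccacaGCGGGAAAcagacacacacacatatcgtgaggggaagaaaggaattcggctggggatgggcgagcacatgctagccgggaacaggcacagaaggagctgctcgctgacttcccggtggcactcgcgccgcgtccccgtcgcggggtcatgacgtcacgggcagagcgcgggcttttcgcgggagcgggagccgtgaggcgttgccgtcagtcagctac
Chek2: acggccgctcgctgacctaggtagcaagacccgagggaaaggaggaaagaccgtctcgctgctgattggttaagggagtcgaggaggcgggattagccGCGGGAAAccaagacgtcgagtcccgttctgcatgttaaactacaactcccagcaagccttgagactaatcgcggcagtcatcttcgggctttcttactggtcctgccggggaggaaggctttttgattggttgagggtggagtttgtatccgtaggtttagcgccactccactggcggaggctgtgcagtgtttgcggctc
Msh6: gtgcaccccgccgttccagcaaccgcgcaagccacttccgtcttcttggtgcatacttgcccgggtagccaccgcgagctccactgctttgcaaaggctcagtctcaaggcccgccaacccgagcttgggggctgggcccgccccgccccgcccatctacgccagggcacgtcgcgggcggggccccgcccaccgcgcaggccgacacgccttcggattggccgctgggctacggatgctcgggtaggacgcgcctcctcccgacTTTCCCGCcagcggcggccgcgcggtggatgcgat
Xrcc6: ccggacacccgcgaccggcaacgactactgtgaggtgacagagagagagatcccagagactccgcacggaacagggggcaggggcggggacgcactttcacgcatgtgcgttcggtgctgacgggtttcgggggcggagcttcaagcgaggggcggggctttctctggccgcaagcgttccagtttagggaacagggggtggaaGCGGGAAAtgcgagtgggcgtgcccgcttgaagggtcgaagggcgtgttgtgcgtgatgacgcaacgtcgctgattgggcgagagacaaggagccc
The first base of the match lies at -209 from the start in Bard1, -168 in Brca2, -152 in Chek2, -46 in Xrcc6 and 15 in Msh6, where 0 is the first transcribed base.

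Break sensing and checkpoint genes were led by the effector kinases. Chek1, the kinase that halts the cycle when forks stall, had log2 values of 6.57, 8.16 and 7.16 in lateral ventricle arrays 1, 2 and 3 and of 8.03, 8.26 and 8.46 in those of the third ventricle. Arrays 1 and 3 of the lateral ventricle were low, array 2 lay among the third ventricle values, and the groups overlapped. The means were 7.30 ± 0.81 and 8.25 ± 0.22 (SD, n = 3), a difference of 0.95 (SE 0.35, limma adjusted p = 0.349), or 1.94-fold. Without array 2 the difference was 1.39, or 2.61-fold (adjusted p = 0.00366). Chek2, the effector kinase downstream of Atm, read 5.23, 6.54 and 5.89 in the lateral and 6.63, 6.52 and 6.55 in the third ventricle arrays, again with only array 2 at the third ventricle level. It differed by 0.68 (adjusted p = 0.377), and by 1.01 without array 2 (adjusted p = 0.0118).

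The sensor complex that binds broken ends had smaller differences than these kinases. Rad50, its long coiled-coil subunit, had values of 8.06, 8.71 and 8.05 in lateral and 8.77, 8.73 and 8.89 in those of the third ventricle. Every value of the third ventricle lay above the lateral ones, with array 2 just beneath them, and the difference was 0.52 (adjusted p = 0.336), or 0.74 without array 2 (adjusted p = 0.00336). Mre11a, the nuclease of the complex, read 6.82, 7.13 and 6.88 against 7.27, 7.34 and 7.44, also without overlap. Its difference was 0.40 (adjusted p = 0.270), and 0.50 without array 2 (adjusted p = 0.0206). For Nbn, the adaptor that recruits Atm, the difference of 0.34 (adjusted p = 0.496) became 0.55 without array 2 and did not pass (adjusted p = 0.0515), and a second probe set of Nbn, dimmer in every array, differed by 0.05 and 0.09. The apical kinases were called in neither fit. Atm, which responds to double-strand breaks, stayed between 7.47 and 7.74 in the 6 arrays and differed by 0.02 (95% interval -0.21 to 0.26). Atr, which responds to single-stranded DNA, stayed between 7.46 and 7.63 and differed by 0.10 (-0.10 to 0.29), with no overlap between the regions.

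**Figure D2:**
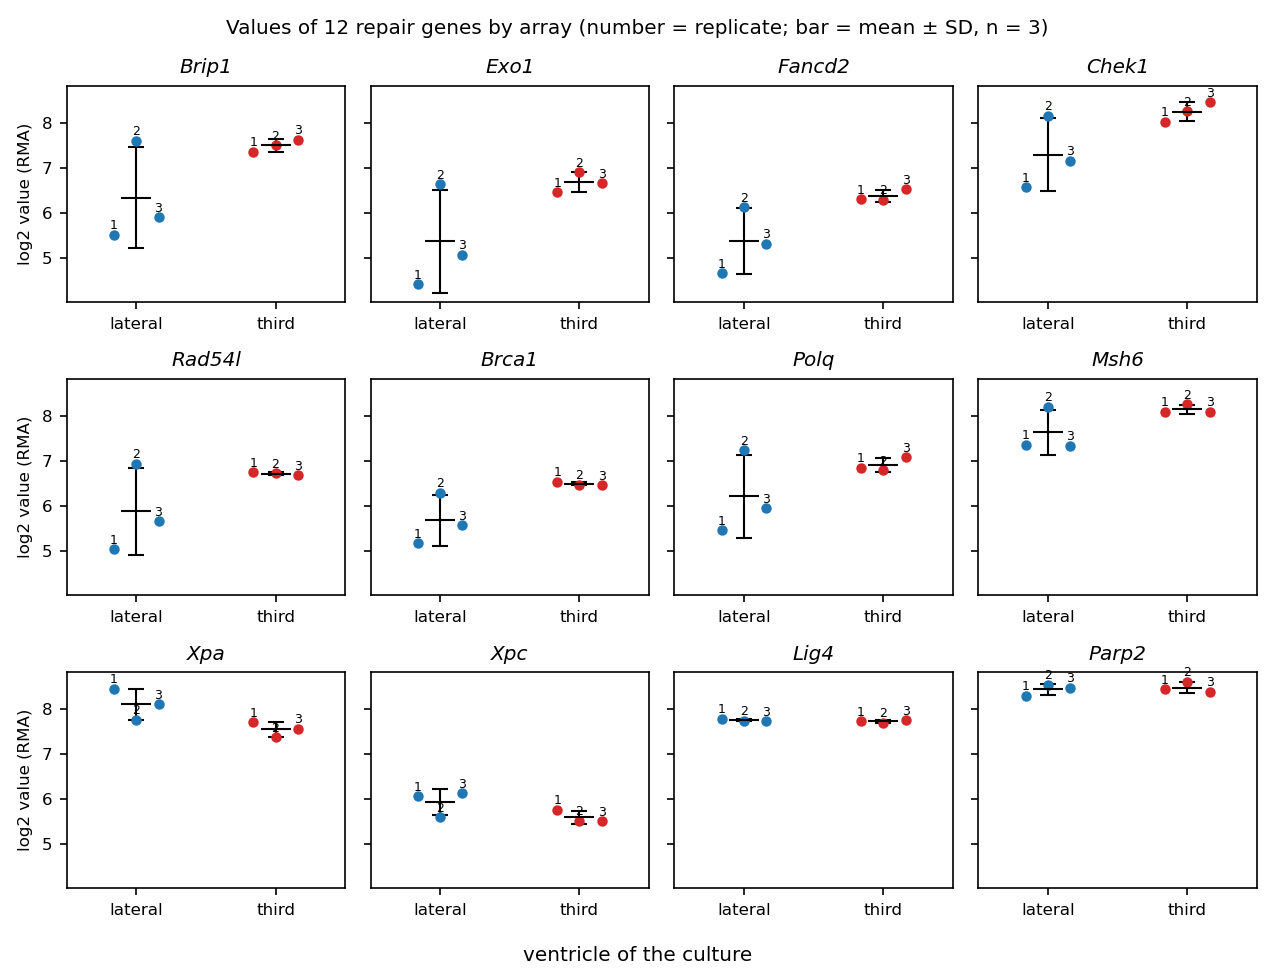
Log2 values (RMA) of 12 repair genes, with a point for each array numbered by replicate and bars for mean ± SD (n = 3). In Brip1, Exo1, Fancd2, Chek1, Rad54l, Brca1, Polq and Msh6 lateral arrays 1 and 3 are low and array 2 lies near the third ventricle arrays, in Xpa and Xpc lateral arrays 1 and 3 are high, and the Lig4 and Parp2 points lie close together. Heights are not comparable between genes, since probe sets differ in brightness.

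Nearly all homologous recombination genes had this pattern. Without lateral ventricle array 2, 7 of the 8 measured were called higher in the third ventricle cultures, against 4.37% of all genes. The median difference of the 8 was then 1.09. With all arrays 0 of 8 passed, with a median of 0.70, and 4 had an unadjusted p below 0.05, against 12.6% of all genes. Brca1, the ubiquitin ligase that starts recombination and guards stalled forks, had values of 5.18, 6.30 and 5.58 in lateral and 6.54, 6.48 and 6.47 in those of the third ventricle. All values of the third ventricle lay above the lateral ones, array 2 being the nearest. The means were 5.69 ± 0.57 and 6.49 ± 0.04 (SD, n = 3), a difference of 0.80 (SE 0.25, adjusted p = 0.297), or 1.11 without array 2 (adjusted p = 0.00182).

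Bard1, the partner that forms a dimer with Brca1, read 5.88, 7.29 and 6.26 in lateral and 7.08, 7.24 and 7.12 in those of the third ventricle. Array 2 was the highest of all 6, so the groups overlapped, and the difference of 0.67 (adjusted p = 0.415) was 1.08 without it (adjusted p = 0.00226). Its 2 other probe sets differed by 1.17 and 0.81 with all arrays and by 1.68 and 1.24 without array 2, in the same direction. Brca2, which loads the recombinase onto DNA, had values of 6.01, 7.17 and 6.05 against 7.04, 7.04 and 7.23. Lateral arrays 1 and 3 were nearly equal and array 2 lay inside the third ventricle range. The difference was 0.70 (adjusted p = 0.376), and 1.08 without array 2 (adjusted p = 0.000848). Palb2, the bridge between Brca1 and Brca2, was called higher without array 2 by 0.65 (adjusted p = 0.0183), but all 6 of its values, 3.90 to 4.78, were below the background gauge, so no fold is given.

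The accessory factors of strand exchange had some of the widest lateral spreads. Rad54l, a motor protein that drives strand invasion, had values of 5.05, 6.94 and 5.67 in lateral and 6.75, 6.73 and 6.69 in those of the third ventricle. The third ventricle values were nearly identical, whereas the lateral ones spanned 1.89, with array 2 the highest of all 6. Its difference was 0.84 (SE 0.40, adjusted p = 0.430), or 1.79-fold, and without array 2 it was 1.37, or 2.58-fold (adjusted p = 0.00228). Rad51ap1, which stimulates the recombinase, read 5.39, 6.93 and 5.83 against 6.76, 6.95 and 6.92, with array 2 inside the third ventricle range. It differed by 0.82 (adjusted p = 0.373), and by 1.26 without array 2 (adjusted p = 0.00159). Blm, the helicase that dissolves recombination intermediates and is lost in Bloom syndrome, read 6.44, 8.08 and 6.97 against 7.82, 7.83 and 7.96. It differed by 0.71 (adjusted p = 0.449), and by 1.16 without array 2 (adjusted p = 0.00323). Xrcc3, a paralog of the recombinase, was the exception. It stayed between 5.76 and 5.98 in all arrays and differed by 0.02 (95% interval -0.20 to 0.24), and by 0.07 without array 2 (adjusted p = 0.786).

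The Fanconi genes called were the helicase Brip1, the pair that is monoubiquitinated, Fancd2 and Fanci, and Fancm and Fancb. Of 7 genes, 0 passed with all arrays and 4 had an unadjusted p below 0.05, against 12.6% of all genes. Without lateral ventricle array 2, 5 were called higher, against 4.37% of all genes. Fancd2, which with Fanci clamps onto DNA at a crosslink, had values of 4.67, 6.13 and 5.32 in lateral and 6.31, 6.30 and 6.53 in those of the third ventricle. The groups did not overlap, and only the lowest, lateral array 1, lay below the background gauge. The means were 5.37 ± 0.73 and 6.38 ± 0.13 (SD, n = 3), a difference of 1.01 (SE 0.31, adjusted p = 0.301), or 1.38 without array 2 (adjusted p = 0.00303). No fold is given, since array 1 has only a bound. Fanci read 5.19, 6.82 and 6.08 against 6.54, 6.80 and 6.80, with array 2 the highest of all 6 by a small margin. It differed by 0.69 (adjusted p = 0.457), and by 1.08 without array 2 (adjusted p = 0.0280).

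Brip1, a helicase that binds Brca1 and is also known as FANCJ, had values of 5.52, 7.61 and 5.91 in lateral and 7.36, 7.51 and 7.63 in those of the third ventricle. Lateral arrays 1 and 3 lay far below the rest and array 2 inside the third ventricle range. The means were 6.34 ± 1.12 and 7.5 ± 0.13 (SD, n = 3), a difference of 1.16 (SE 0.46, adjusted p = 0.367), or 2.23-fold. Without array 2 it was 1.79, or 3.46-fold, with the lowest adjusted p of any member (0.000412). Fancm, the translocase that brings the core complex to DNA, read 6.13, 6.72 and 6.19 against 6.72, 6.81 and 6.76 and differed by 0.42 (adjusted p = 0.353), or 0.61 without array 2 (adjusted p = 0.00683).

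Of the core complex genes Fanca, Fancb and Fancc, only Fancb was called, in the fit without array 2. The complex attaches ubiquitin to Fancd2 and Fanci. Fancb read 4.75, 5.70 and 4.73 in lateral and 5.46, 5.65 and 5.59 in those of the third ventricle. It differed by 0.51 (adjusted p = 0.429), or 0.83 without array 2 (adjusted p = 0.00226). Lateral arrays 1 and 3 lay below the background gauge, and the mean of the third ventricle was at least 1.40-fold higher than the gauge. Fanca read 5.54, 5.87 and 5.79 against 5.95, 6.03 and 6.01, which do not overlap, but its difference of 0.26 (adjusted p = 0.383) did not pass without array 2 either (0.33, adjusted p = 0.117). Fancc read 5.15, 5.33 and 5.20 against 5.39, 5.48 and 5.34, also without overlap, and differed by 0.18 (adjusted p = 0.487) and 0.23 (adjusted p = 0.231).

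In end joining the only call without lateral ventricle array 2 was of the alternative route. Polq, the polymerase of the mutagenic theta-mediated route that uses short homologies, had values of 5.47, 7.24 and 5.95 in lateral and 6.85, 6.80 and 7.08 in those of the third ventricle. Array 2 was the highest of all 6, and the difference of 0.69 (adjusted p = 0.506) was 1.2 without it (adjusted p = 0.00299). The 3 classical genes did not pass in either fit. Lig4, the ligase that seals the ends, read 7.78, 7.74 and 7.73 against 7.73, 7.69 and 7.75 and differed by -0.03 (95% interval -0.22 to 0.17). Xrcc5 and Xrcc6, which encode the Ku subunits that cap broken ends, differed by 0.09 (-0.10 to 0.29) and 0.14 (-0.13 to 0.42). Xrcc5 stayed within 8.07 to 8.23 and Xrcc6 within 7.18 to 7.60. For each of the 3 genes the interval ended below 0.69, the estimate for Polq with all arrays. The interval of Polq itself, -0.20 to 1.58, contained 0 and overlapped those of the 3 genes. The difference between the routes was not tested.

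In mismatch repair 2 of 3 genes, Exo1 and Msh6, were called higher without lateral ventricle array 2, against 4.37% of all genes. Exo1, the exonuclease that removes the strand with the error and also resects breaks, had values of 4.42, 6.64 and 5.08 in lateral and 6.47, 6.91 and 6.67 in those of the third ventricle. Lateral arrays 1 and 3 lay below the background gauge, and array 2 lay inside the third ventricle range. The means were 5.38 ± 1.14 and 6.68 ± 0.22 (SD, n = 3), a difference of 1.30 (SE 0.48, adjusted p = 0.351). The fitted difference without array 2 was 1.93 (adjusted p = 0.00113), and the mean of the third ventricle was at least 3.02-fold higher than the gauge. Msh6, which recognises mismatches, read 7.36, 8.20 and 7.34 against 8.09, 8.26 and 8.09, with array 2 inside the third ventricle range. It differed by 0.52 (adjusted p = 0.387), and by 0.80 without array 2 (adjusted p = 0.00263). Pms2, a subunit of the nicking endonuclease, read 6.17, 6.36 and 6.32 against 6.42, 6.02 and 6.47. It differed by 0.02 (95% interval -0.29 to 0.33), and its range of 0.45 over the third ventricle arrays was the widest of any member.

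Base excision and single-strand break repair genes had differences from -0.18 to 0.20 between the regions. None of the 5 passed with or without lateral ventricle array 2 (0 at an unadjusted p below 0.05 with all arrays, and 1 without array 2). Parp2, a sensor of strand breaks, read 8.29, 8.54 and 8.47 in lateral and 8.44, 8.60 and 8.38 in those of the third ventricle and differed by 0.04 (95% interval -0.21 to 0.29). Parp1, the main poly(ADP-ribose) polymerase, read 7.60, 8.08 and 7.64 against 7.82, 7.90 and 7.86. Array 2 was the highest of all 6, as in Blm and Rad54l, but it differed by only 0.09 (-0.23 to 0.40), and by 0.24 without array 2 (adjusted p = 0.185). The scaffold Xrcc1 differed by 0.01 (-0.19 to 0.22), the uracil glycosylase Ung by 0.20 (-0.06 to 0.45) and the oxoguanine glycosylase Ogg1 by -0.18 (-0.42 to 0.05). Ung lay at 5.61, 5.62 and 5.61 in the lateral arrays, the narrowest spread of any member. In those of the third ventricle it lay at 5.76, 6.01 and 5.67, without overlap.

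Of 4 nucleotide excision repair genes, 0 passed with all arrays and 1 had an unadjusted p below 0.05, against 12.6% of all genes. Xpa and Xpc were called lower without lateral ventricle array 2, against 3.88% of all genes. Xpa, which verifies the lesion, had values of 8.45, 7.76 and 8.10 in lateral and 7.71, 7.37 and 7.56 in those of the third ventricle. Every value of the third ventricle lay below the lateral ones, and array 2 was the lowest of the lateral arrays. The means were 8.10 ± 0.35 and 7.54 ± 0.17 (SD, n = 3), a difference of -0.56 (SE 0.18, adjusted p = 0.310), the lateral level being 1.47-fold higher. Without array 2 the difference was -0.73, the lateral level being 1.66-fold higher (adjusted p = 0.0194). Xpc, which finds distorted DNA across the genome, read 6.06, 5.6 and 6.13 against 5.77, 5.52 and 5.51, with array 2 inside the third ventricle range. It differed by -0.33 (adjusted p = 0.419), and by -0.50 without array 2 (adjusted p = 0.0358). Ercc1, a subunit of the nuclease that cuts beside the lesion, differed by -0.05 (95% interval -0.30 to 0.20), and Ercc2, a helicase of TFIIH, by -0.15 (-0.39 to 0.08). For Ercc2, array 2 of the third ventricle, at 5.09, lay below the background gauge.

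**Figure D3:**
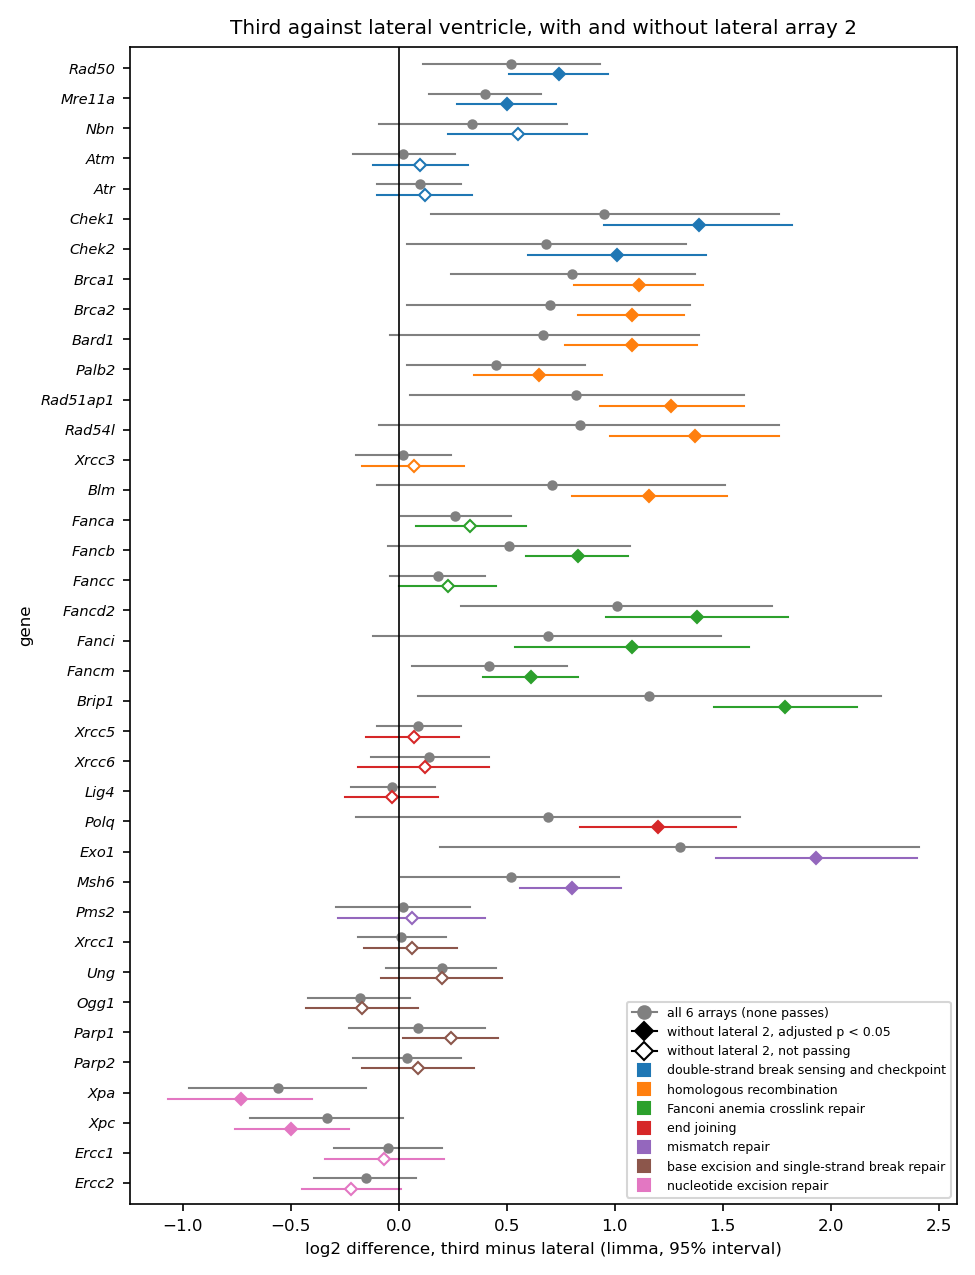
Log2 difference of each repair gene, the third minus the lateral ventricle, from limma with 95% intervals, over all 6 arrays (grey circles) and without lateral array 2 (diamonds colored by route, filled where the adjusted p is below 0.05). No gene passes with all arrays, and without array 2 there are 21 filled diamonds, 19 to the right and those of Xpa and Xpc to the left.

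The repair genes spread more among the lateral than among the third ventricle cultures, with a wider lateral range in 32 of the 38 members and in 13277 of all 19938 genes. The range over the 3 lateral arrays was above 1 on the log2 scale in 13 of the 38 members, against 3.63% of all genes, and the range over the third ventricle arrays was above 1 in 0 members, against 0.0903% of all genes. The 13 were Exo1, Brip1, Rad54l, Polq, Fanci, Blm, Chek1, Rad51ap1, Fancd2, Bard1, Chek2, Brca2 and Brca1, with ranges from 2.23 down to 1.12. Just short of 1 were Fancb at 0.96 and Msh6 at 0.86. The median lateral range was 1.29 for recombination genes, 0.96 for Fanconi genes and 0.16 for base excision genes, and the median range of the same routes in the third ventricle was 0.15, 0.19 and 0.22. Over all genes these medians were 0.29 and 0.20. Without lateral ventricle array 2 no member had a lateral range above 1, and without array 1 there were 9.

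**Figure D4:**
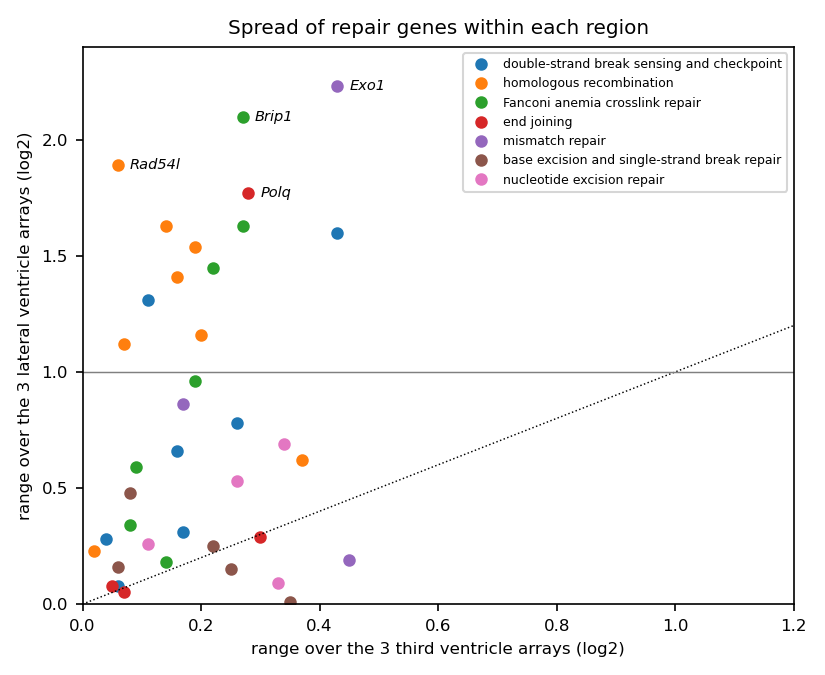
Range of each repair gene over the third ventricle arrays (horizontal) and over the 3 lateral ventricle arrays (vertical), both in log2 units and colored by route, with a line at a lateral range of 1 and a dotted line of equal ranges. The 13 genes above the line reach 2.23, whereas no range in the third ventricle is above 0.45.

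Other repair genes, from a list of 90 of which 79 were measured, were called in the same fit only. With all arrays 0 of 79 passed in limma, and 17 had an unadjusted p below 0.05, against 12.6% of all genes. Without lateral ventricle array 2, 20 passed. Of these, 19 were higher and 1 was lower in the cultures of the third ventricle, against 4.37% and 3.88% of all genes. Recombination gave 8 of 20, among them Rpa1 (1.40, adjusted p = 0.000305) and Rpa2 (1.21, adjusted p = 0.000494), subunits of the protein that coats single-stranded DNA, and the resolvase Gen1 (1.7, adjusted p = 0.000253). With all arrays those 3 differed by 0.99, 0.80 and 1.09. Break sensing and checkpoint genes gave 5 of 12, including Wee1, the kinase that restrains entry into mitosis (1.55, adjusted p = 0.000998), and the mediator Mdc1 (0.98, adjusted p = 0.00121).

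The remaining routes gave fewer calls. Of 13 further Fanconi genes, Usp1, which removes ubiquitin from Fancd2 (0.83, adjusted p = 0.00164), and Ube2t, the conjugating enzyme that attaches it (0.69, adjusted p = 0.0139), passed without array 2. Of 14 further base excision genes 3 did, the glycosylase Neil3 (1.79, adjusted p = 0.00084), the replicative ligase Lig1 (1.33, adjusted p = 0.000628) and the flap nuclease Fen1 (1.28, adjusted p = 0.00322). Pms1 was called among 3 mismatch genes (0.61, adjusted p = 0.0187) and none among 6 end joining genes, none of which had an unadjusted p below 0.05. Of 11 further nucleotide excision genes, the single call was lower, for Uvssa (-0.57, adjusted p = 0.0395), and 10 of the 11 had a negative difference without array 2. Rev3l and Rpa3, whose probe sets had the highest mean signals, differed by 0.04 and 0.26 with all arrays and were not called in either fit.

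Genes of DNA replication and of mitosis moved with the same arrays. None of 21 S phase genes passed with all arrays (14 at an unadjusted p below 0.05) and 20 did without lateral ventricle array 2, all higher in the third ventricle cultures. For 19 mitosis genes the numbers were 0 (19 unadjusted) and 19. Over all genes, 12.6% had an unadjusted p below 0.05 with all arrays and 4.37% were called higher without array 2. Relative to each gene's mean, the S phase median was -1.14, 0.54 and -0.83 in lateral arrays 1, 2 and 3 and 0.43, 0.52 and 0.52 in those of the third ventricle. The median of the 8 recombination members was -0.92, 0.44 and -0.55 and then 0.29, 0.35 and 0.40, and that of the 4 nucleotide excision members 0.25, -0.06 and 0.17 and then -0.03, -0.22 and -0.15. Rrm2 and Rrm1, the subunits of ribonucleotide reductase, differed by 1.32 and 1.29 with all arrays and by 2.06 and 1.91 without array 2, and Pcna, the replication clamp, by 0.56 and 0.84. Of the mitosis genes, the kinases Bub1 and Plk1 differed by 1.39 and 1.32 with all arrays, and Top2a and Cdk1, the brightest, by 1.17 and 1.30. The part of cell division in the repair gene differences was not tested.

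**Figure D5:**
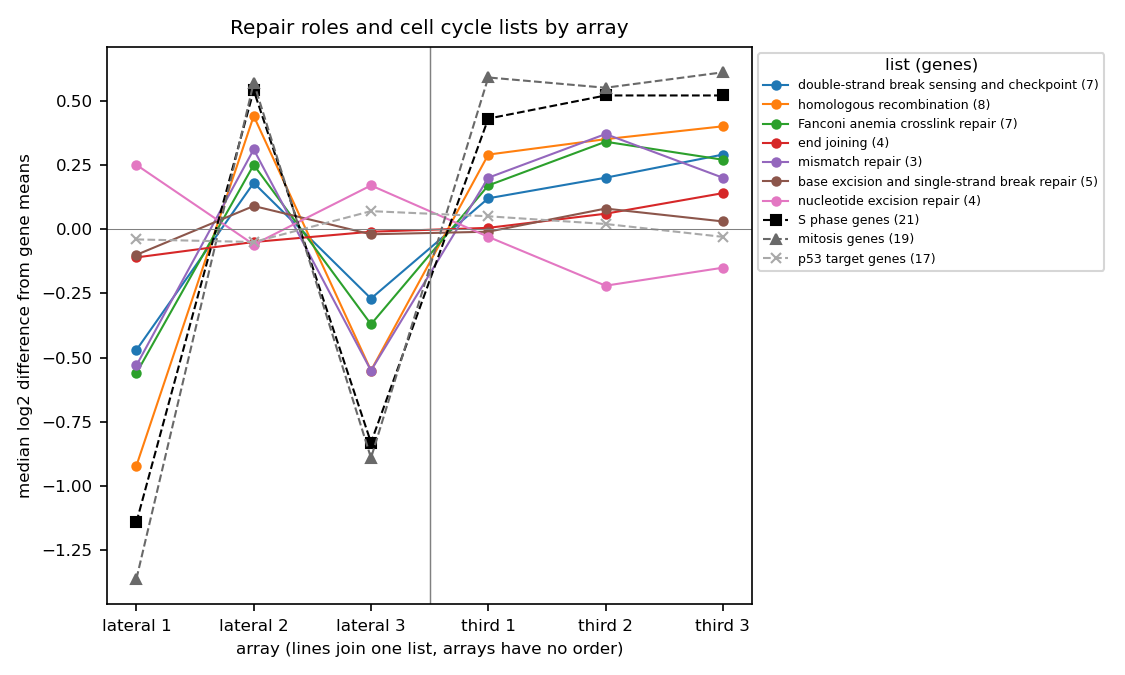
Median log2 difference from each gene's mean in the 6 arrays, for the 7 repair routes (solid), the S phase and mitosis genes and the p53 targets (dashed), with the number of genes in brackets. Recombination, Fanconi, checkpoint and mismatch medians are low in lateral arrays 1 and 3, where the S phase and mitosis medians are lowest, and nucleotide excision is highest there.

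Targets of p53, the factor that damage signalling activates, had a median difference close to 0. Of 17 measured, 0 passed with all arrays (2 at an unadjusted p below 0.05, against 12.6% of all genes), and the median was 0.04. Gadd45a, a growth arrest gene that p53 and other stress pathways induce, had values of 7.97, 6.57 and 8.91 in lateral and 6.83, 6.55 and 6.72 in those of the third ventricle. Lateral arrays 1 and 3 were high and array 2 lay inside the third ventricle range. It differed by -1.12 (adjusted p = 0.395), and by -1.75 without array 2 (adjusted p = 0.00389). Sesn2, a stress-induced sestrin, followed with -0.70 without array 2 (adjusted p = 0.0224), and those were the only calls of the list in that fit. Mdm2, the ligase that degrades p53, differed by -0.09 there (adjusted p = 0.736), and Ccng1 and Trp53inp1, the brightest of the list, by 0.23 and -0.06. Plk2 differed by 0.60 with all arrays (adjusted p = 0.556).

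Markers of other cell types were examined beside the repair genes. Pdgfra, the receptor that marks oligodendrocyte progenitors, passed with all arrays, the only gene of the lists beside the repair members to do so. It read 8.78, 8.25 and 8.53 in lateral arrays and 6.93, 6.58 and 6.69 in those of the third ventricle, with no overlap and array 2 on the lateral side. It fell by 1.79 from the lateral to the third ventricle (limma adjusted p = 0.00707). When array 2 or array 3 of the third ventricle was left out, the adjusted p was 0.0858 and 0.0798. Gpr17 and Sox10 of the same lineage differed by -1.35 (adjusted p = 0.133) and -0.74 (adjusted p = 0.118), and both were called lower without lateral ventricle array 2.

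Over the marker lists, 6 of 8 oligodendrocyte lineage markers, 8 of 9 neuronal markers and 4 of 7 astrocyte markers had a negative difference with all arrays, against 10886 of all 19938 genes, and the medians were -0.16, -0.25 and -0.08. The summed linear level was 1352 to 1496 in lateral arrays and 1046 to 1092 in those of the third ventricle for the oligodendrocyte lineage, 1788 to 2275 and 1771 to 2038 for neurons, and 1566 to 2560 and 2540 to 2897 for astrocytes. Such sums follow the brightest probe sets, here Map2 among the neuronal markers (0.24, adjusted p = 0.533) and Sparcl1 among the astrocyte markers (0.94, adjusted p = 0.202). Of these markers, 7, 4 and 5 lay above the background gauge in all 6 arrays, and Syt1, Stmn2, Slc17a6, Gfap and Gjb6 lay below it in all. Dcx, a marker of newborn neurons, read 7.70, 6.41 and 6.86 in lateral arrays and 5.81, 5.27 and 5.0 in those of the third ventricle, without overlap (adjusted p = 0.136). Nes, a stem cell marker, read 6.47, 7.70 and 6.95 against 7.51, 7.67 and 7.54, with only lateral arrays 1 and 3 low. It was the only 1 of 10 stem cell markers with a lateral range above 1. Of the 10, 4 had a positive and 6 a negative difference with all arrays, with a median of -0.04. The part of the mix of cells in the repair gene differences was not tested.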

How the data were processed

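RNA from 6 cultures was amplified with a NuGEN WT-Ovation Pico kit (input 500 pg to 50 ng) and hybridised to Affymetrix mouse gene arrays, per the labels' protocols. The submitters' processing notes name RMA and Affymetrix Expression Console 1.1, and the deposited values are the authors' log2 signals. RMA corrects background and gives all arrays 1 distribution, so a shift common to all genes is not visible, and array medians were 5.43 to 5.47. No genome build is given in the sources used here. Of 35556 probe sets, 21789 had 1 gene symbol in the platform annotation, 1621 had several and 12146 were not listed there. The brightest probe set per gene left 19938 genes.

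Regions were compared with limma 3.58.1 (lmFit and eBayes, R 4.3.3) on these log2 values, with Benjamini-Hochberg adjustment over all 19938 genes, a threshold of 0.05 and 95% intervals. Intervals are not adjusted for the number of genes. The fit was tested on simulated data in which each gene had the same spread in both regions and no array stood apart. That setting does not cover the wider lateral spread seen here or an array like lateral ventricle array 2. The labels speak of biological replicates without linking numbers to animals, and the p-values reflect only how far these cultures spread, which may be technical. The 3 arrays per region limit the precision. The alternatives were the mean of a gene's probe sets, a filter on the dimmest 40% of genes, quantile and cyclic loess normalization, a trended robust prior, array weights, a replicate block, a minimum fold of 1.2 and leaving out each array. The members and lists were chosen with earlier results of these data known. All members are described. Of the other lists, the text names genes that passed or, where none did, those with the largest differences and highest means. Genes of those lists that passed only without lateral ventricle array 2 were chosen after their values were seen. "At least" folds set the third ventricle mean against the background gauge in place of arrays below it.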

Additional observations from a re-analysis of the deposited data

How the results depend on the processing

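With all arrays the number of repair genes called was 0 under each of the 8 alternatives that keep every array, and all 38 members (37 under the filter on dim genes) kept their direction. Under array weights the lowest adjusted p of a member in limma was 0.0660 (Brca1). Over all genes the count of 46 became 158 with array weights and 17 with a minimum fold of 1.2. Leaving out each array in turn gave 4 to 1644 genes, 0 to 21 repair genes called and 0 to 13 with a lateral range above 1. The values 1644, 21 and 0 for the range are those without lateral ventricle array 2. Dropping lateral array 1 gave 25 genes, dropping lateral array 3 gave 20, and leaving out arrays 1, 2 and 3 of the third ventricle there were 7, 4 and 4. The cause was not tested.

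Members whose sign turned when an array was left out all had differences close to 0. Their ranges were -0.06 to 0.16 for Pms2, -0.02 to 0.06 for Xrcc1, -0.0018 to 0.24 for Parp1, -0.03 to 0.09 for Parp2, -0.04 to 0.10 for Atm, -0.05 to 0.07 for Xrcc3 and -0.13 to 0.04 for Ercc1. The comparison with lateral ventricle array 2 alone, chosen after seeing the data, turned the median of the repair genes to -0.04. It also turned Nbn (-0.06), Atm (-0.12), Brca2 (-0.07), Bard1 (-0.14), Rad51ap1 (-0.05), Rad54l (-0.22), Xrcc3 (-0.07), Blm (-0.21), Fancb (-0.13), Fanci (-0.10), Brip1 (-0.11), Polq (-0.33), Msh6 (-0.05), Pms2 (-0.06), Xrcc1 (-0.08), Parp1 (-0.22) and Parp2 (-0.07). None of these was called there.

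With the replicate number as a block, 57 genes and 0 repair genes were called, and the median of the repair genes was 0.37. Arrays of the same number correlated in their deviations from the group means at 0.240, 0.111 and 0.0679. Arrays of different number correlated at -0.145 to 0.0398, below each of those values. Deviations from a group mean cancel within the group, so positive values for the same number by themselves lower the others. The labels do not link the numbers to animals, and whether arrays of the same number share an origin was not tested. Signals near background limit what can be read for Palb2, Fancb, Exo1, Fancd2 and Ercc2.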
